A study of Caenorhabditis elegans with 4 samples.

Results

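The genes described here are the canonical core histone and linker histone genes of *C. elegans*, measured by RNA-seq in dissected adult gonads. They are the 42 rows of the deposited gene table whose symbol starts with *his-* or *hil-*, out of 15286 genes in all, after the H3.3 genes *his-69*, *his-70*, *his-71*, *his-72* and *his-74* were left out by the rule. Of the 42 genes, 8 encode H2A, 7 encode H2B, 9 encode H3, 9 encode H4 and 9 encode linker histones of the H1 family. All 42 had reads in every library and all 42 were tested.

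The H3.3K27M mutant worms carried the allele *uge40* in *his-72*, an H3.3 gene, in which lysine 27 of the histone is replaced by methionine (strain label FAS58, genotype his-72(uge40[K27M]) III). The controls were wild-type worms of strain N2 with no allele named. There were 2 libraries from mutant gonads and 2 from wild-type gonads, all from adults grown at 25 °C. The study calls the replicates biological without saying what separates them, and *p*-values measure only the spread between these libraries. Sequencing used a kit that selects polyadenylated mRNA. The labels do not give the number of animals pooled in a library. In such bulk samples, fewer cells of a type and less RNA per cell cannot be told apart. The titles of the mutant samples carry another strain number than their strain label, and the extraction text of all samples speaks of embryos and larvae and of 20 °C. A point mutation leaves the *his-72* transcript countable, so the counts do not check the labels.

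Core histones H2A, H2B, H3 and H4 form the protein octamer around which DNA is wrapped, and H1 linker histones bind the DNA between such particles. In animals, most core histone genes are transcribed for DNA replication in S phase, and their mRNAs end in a stem-loop in place of a poly(A) tail. In *C. elegans* these genes lie in clusters in which H2A stands head to head with H2B and H3 with H4, and the many copies are close to identical in sequence. Linker histone genes are single genes with introns and polyadenylated mRNAs. Of transcripts with a stem-loop end, libraries of polyadenylated RNA therefore hold only those captured despite it. Reads shared by several copies cannot be given to 1 gene. Every level below is that of the captured and assigned reads.

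Libraries held between 28298609 and 32957429 counts on genes. Levels are TMM-normalized CPM (counts scaled to a common library size), and 3 counts, taken as the floor of detection, lie between 0.0919 and 0.105 CPM. The 13 germline marker genes summed to 15327 and 12583 CPM in mutant gonads, against 21100 and 16636 CPM in wild-type gonads, the highest sums among the marker lists. Without *rme-2*, the highest of them, the sums were 8345 and 6790 CPM in mutant gonads, against 8803 and 7804 CPM in wild-type gonads, and overlapped. Of the 13 genes, 6 had a log2 fold change above 0 and 7 below 0. The 12 intestine markers summed to 15.9 and 22.2 CPM in mutant gonads, against 379 and 3459 CPM in wild-type gonads. The 6 that passed the test as lower were *vit-1* to *vit-6*, which made up most of each sum. Of the 12 genes, 10 had a log2 fold change below 0 and 2 above 0. Among the latter, *ges-1* had 3.49 and 1.35 CPM in mutant gonads, against 0.171 and 0.662 CPM in wild-type gonads. The 10 neuron markers summed to 104 and 92.9 CPM in mutant gonads, against 62.1 and 66.1 CPM in wild-type gonads. The higher mutant sums came from *unc-31* and *unc-13*, of which *unc-13* was the 1 neuron marker that passed as higher. Of the 10 genes, 6 had a log2 fold change above 0 and 4 below 0. The sums of 14 sperm markers were 82.9 and 114 CPM in mutant gonads, against 28.3 and 10.98 CPM in wild-type gonads, but *spe-41* carried them. Without it the sums were 5.73 and 11.9 CPM in mutant gonads, against 5.36 and 5.37 CPM in wild-type gonads, 9 of the 14 genes had a log2 fold change below 0 (median -1.29), and 0 passed the test. Body wall muscle (8 genes), hypodermis (6 genes) and somatic gonad markers (9 genes) had sums between 119.3 and 447 CPM, and 1 of them, the somatic gonad marker *plc-1*, passed as lower. None of the listed marker genes in the table was at 0 in all 4 libraries. H3.3K27M replicate 1 detected 13116 genes, while the other libraries detected 14553 to 14726.

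In H3.3K27M gonads, 1 of the 42 histone genes was higher and 0 were lower. A call required a change of more than 2-fold and an edgeR quasi-likelihood *p*-value that, after Benjamini-Hochberg adjustment over all 15261 tested genes, lay under 0.05. The share called among all tested genes was 4.43% higher and 1.46% lower. The gene called was the linker histone gene *hil-7*. At an unadjusted *p*-value under 0.05 there were 3 higher histone genes, *hil-7*, *hil-1* and *his-32*, and 2 lower, *his-47* and *his-67*, while 12.3% and 12.4% of all tested genes reached that level. DESeq2 called *hil-7* and *hil-1* higher and *his-67* lower, while it called 8.05% of all genes higher and 3.42% lower. With the replicate number as a block, edgeR called no histone gene (2.44% and 0.596% of all genes). *hil-7* was the 1 histone gene called by edgeR's classic exact test (7.12% of all genes higher, 3.34% lower), by the legacy quasi-likelihood fit (4.43% and 1.63%), with RLE scaling (4.06% and 1.15%), with the filterByExpr filter (5.53% and 2%), with crossed replicate pairs as a block (4.19% and 1.42%) and by the adjusted *p*-value without a fold limit (4.48% and 1.48%). The median log2 fold change of the 42 genes was -0.18, beside -0.11 over all tested genes, with 16 of the 42 above 0 and 26 below 0 (44% and 56% of all tested genes). For the 33 core histone genes the median was -0.29, and for the 9 linker histone genes it was 0.70. Of the linker genes, 6 were above 0 and 3 below 0, and their median is the value of a gene averaging 1.74 CPM. The linker genes *hil-4* and *hil-5*, which took 86.2% of all histone counts, had log2 fold changes of -0.49 and -0.04.

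**Figure D1:**
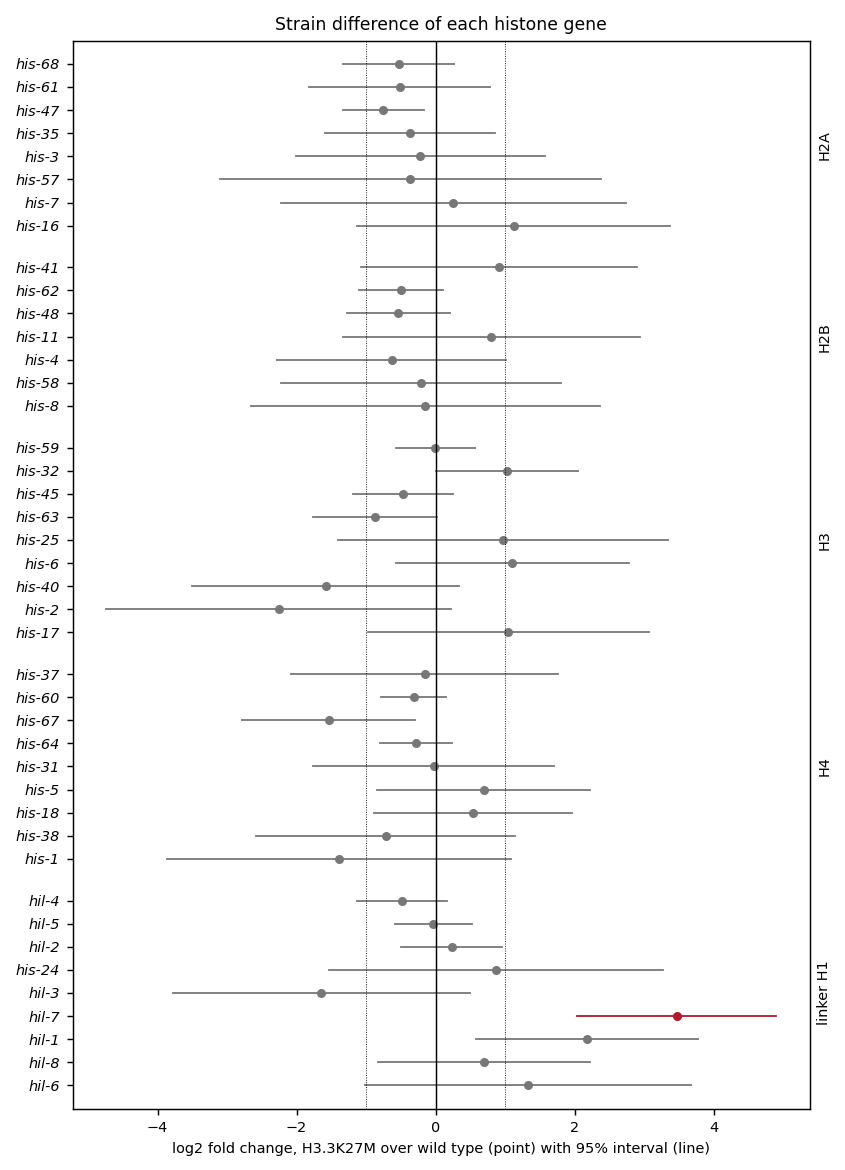
Log2 fold change of H3.3K27M over wild-type gonads for each of the 42 histone genes by class (points), with its 95% interval (lines) from the quasi-likelihood fit; dotted lines mark a 2-fold difference either way. The called gene, *hil-7*, is in red at 3.47, and most other intervals include 0.

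Linker histones made up most of what was seen. Their 9 genes took 89.2% of all histone counts, and *hil-4* and *hil-5* alone took 86.2%. *hil-4*, an H1 gene on chromosome V (4754313 to 4755453, WBcel235), had 3127 and 2293 CPM in mutant gonads, against 4099 and 3497 CPM in wild-type gonads. The groups did not overlap, but the log2 fold change of -0.49 (standard error 0.27, 95% interval -1.13 to 0.16) was not significant (adjusted *p* = 0.306, edgeR). *hil-5*, an H1 gene on chromosome I (5774585 to 5775610), had 2607 and 2404 CPM in mutant gonads, against 2774 and 2364 CPM in wild-type gonads. These values overlapped, and the interval of -0.59 to 0.52 around a log2 fold change of -0.04 lay within a 2-fold difference either way. *hil-2*, an H1 gene on chromosome IV (6294240 to 6295217), had 150.4 and 218 CPM in mutant gonads, against 195 and 118 CPM in wild-type gonads, with a log2 fold change of 0.23 (95% interval -0.49 to 0.95, adjusted *p* = 0.657, edgeR). Its groups also overlapped.

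*hil-7*, an H1 family gene on the plus strand of chromosome IV (6646312 to 6646972), had 153 and 254 counts in mutant gonads, against 22 and 11 counts in wild-type gonads. As levels these were 4.69 and 7.998 CPM in mutant gonads, against 0.751 and 0.383 CPM in wild-type gonads, so the lowest mutant library was well above the highest wild-type library. *hil-7* was 11.1-fold higher in the mutant (log2 fold change 3.47, standard error 0.59, 95% interval 2.03 to 4.90, edgeR adjusted *p* = 0.0255). The annotated gene has 3 exons, an annotated 3′ UTR of 231 bases and a coding length of 198 bases, far shorter than the 453 to 759 bases of the other linker genes, and 0 annotated genes overlap it. With any 1 library left out the log2 fold change stayed between 3.03 and 4.07, but the adjusted *p* of these smaller fits lay between 0.132 and 0.387 and the gene was not called. With the replicate block the adjusted *p* was 0.0578. In the same libraries the summed neuron markers were higher, mainly through *unc-31* and *unc-13*. The summed intestine markers were lower, mainly through *vit-1* to *vit-6* (values above), while other genes of both lists went the other way. The part of these markers in the *hil-7* difference was not tested.

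*hil-1*, an H1 family gene on chromosome V (14949777 to 14952799), had the next largest positive difference among the histone genes. It had 74 and 158 counts in mutant gonads, against 27 and 19 counts in wild-type gonads, or 2.27 and 4.97 CPM in mutant gonads against 0.922 and 0.662 CPM in wild-type gonads. The groups did not overlap, and the log2 fold change was 2.18 (standard error 0.66, 95% interval 0.58 to 3.78). It did not pass the test across all genes (adjusted *p* = 0.123, edgeR), although DESeq2 gave an adjusted *p* of 0.0217. *hil-8* and *hil-6*, chosen after their values were seen, completed the weakly expressed autosomal linker genes, with means of 1.74 and 0.485 CPM. Their log2 fold changes were 0.70 and 1.33, with adjusted *p*-values of 0.515 and 0.429 (edgeR).

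Linker histone genes on chromosome X differed most between the mutant libraries. *his-24*, the gene of the H1 protein HIS-24 (14490094 to 14491119), had 63 and 1013 counts in mutant gonads, against 298 and 240 counts in wild-type gonads. *hil-3* (8159169 to 8160084) had 19 and 307 counts in mutant gonads, against 625 and 300 counts in wild-type gonads. Mutant replicate 1 was thus far below the 3 other libraries for both genes. The strains overlapped for *his-24* and not for *hil-3*, and after scaling mutant replicate 2 was 16.5 times mutant replicate 1 for *his-24* and 16.6 times for *hil-3*. The log2 fold changes were 0.86 (95% interval -1.54 to 3.26, adjusted *p* = 0.612) for *his-24*, named after its values were seen, and -1.64 (95% interval -3.78 to 0.50, adjusted *p* = 0.299) for *hil-3* (edgeR for both). Without mutant replicate 1, the log2 fold change of *hil-3* was -0.67, and without mutant replicate 2 it was -4.76. The other 2 histone genes on this chromosome are *his-38* (H4) and *his-40* (H3). The median log2 fold change of the 4 X-linked histone genes was -1.15, beside -1.06 over all 1979 tested genes of the chromosome.

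**Figure D2:**
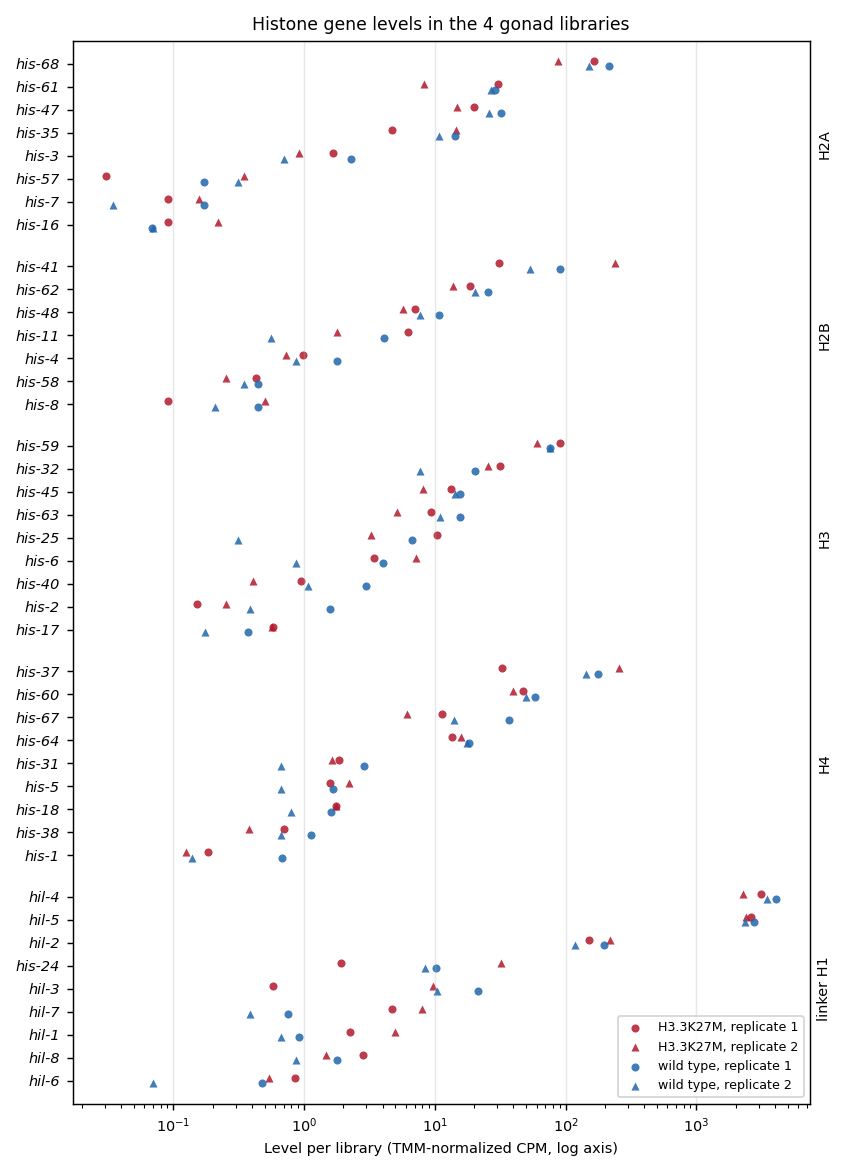
Levels of the 42 histone genes in each library, in TMM-normalized CPM on a log axis; mutant libraries are red and wild-type libraries blue, circles are replicate 1 and triangles replicate 2. *hil-4* and *hil-5* lie highest in every library, at 2293 to 4099 CPM, while 10 genes average under 1 CPM.

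Among H3 genes, which encode the protein that carries lysine 27 in its canonical form, no gene passed the test. *his-59* (chromosome IV, 7488249 to 7488659) was the highest, with 91.5 and 60.5 CPM in mutant gonads, against 76.5 and 76.0 CPM in wild-type gonads. The mutant values enclosed the wild-type values, and the 95% interval of its log2 fold change was -0.57 to 0.56. *his-32* (chromosome IV, 8334305 to 8334715) had 31.7 and 25.5 CPM in mutant gonads, against 20.1 and 7.77 CPM in wild-type gonads. Its groups did not overlap, and the fitted difference was 1.03 on the log2 scale (standard error 0.42, edgeR adjusted *p* = 0.198). *his-45* (chromosome IV, 11326588 to 11326998) went the other way, with 13.4 and 8.09 CPM in mutant gonads, against 15.5 and 14.3 CPM in wild-type gonads (log2 fold change -0.47, adjusted *p* = 0.364, edgeR). Lower down, *his-6* had 111 and 229 counts in mutant gonads, against 118 and 25 counts in wild-type gonads, and *his-40* had 31 and 13 counts in mutant gonads, against 88 and 31 counts in wild-type gonads. Their log2 fold changes of 1.10 and -1.58 had adjusted *p*-values of 0.363 and 0.269 (edgeR). By level the groups overlapped for *his-6* and did not for *his-40*, and differences within the class pointed both ways.

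H4, the partner of H3 in the octamer, gave a like picture. *his-37* (chromosome V, 9547105 to 9547607) had 1058 and 8114 counts in mutant gonads, against 5165 and 4141 counts in wild-type gonads. Its mutant replicates thus lay on either side of wild type, 7.89-fold apart, and the log2 fold change of -0.16 had a 95% interval of -2.08 to 1.77. *his-60* (chromosome IV, 7487681 to 7487992) was far steadier, with 47.3 and 39.7 CPM in mutant gonads, against 58.4 and 49.9 CPM in wild-type gonads. All mutant values were below all wild-type values, and the log2 fold change of -0.32 (95% interval -0.79 to 0.15, adjusted *p* = 0.353, edgeR) stayed within a 2-fold difference. *his-67* (chromosome I, 9988452 to 9988763) had 373 and 196 counts in mutant gonads, against 1083 and 405 counts in wild-type gonads. The groups did not overlap, and the log2 fold change of -1.54 (standard error 0.51, 95% interval -2.78 to -0.29) had an adjusted *p* of 0.143 in edgeR and of 0.0244 in DESeq2.

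Among H2A genes, *his-68* (chromosome I, 9989132 to 9989515) was the highest, with 165 and 88.3 CPM in mutant gonads, against 215 and 152 CPM in wild-type gonads. The groups overlapped, and the log2 fold change was -0.53 (95% interval -1.34 to 0.27, adjusted *p* = 0.359, edgeR). *his-61* (chromosome IV, 7485834 to 7486217) had 30.6 and 8.28 CPM in mutant gonads, against 29.1 and 26.7 CPM in wild-type gonads, so that only mutant replicate 2 stood apart (log2 fold change -0.52, adjusted *p* = 0.572, edgeR). *his-47* (chromosome IV, 11324056 to 11324439) had 19.9 and 14.7 CPM in mutant gonads, against 32.2 and 26.1 CPM in wild-type gonads. Here the groups did not overlap, and the interval of the log2 fold change of -0.75 (-1.34 to -0.17) left out 0, but the adjusted *p* of 0.136 (edgeR) missed the threshold.

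H2B forms a dimer with H2A. Its highest gene, *his-41* (chromosome V, 9545536 to 9546264), had 1017 and 7583 counts in mutant gonads, against 2648 and 1523 counts in wild-type gonads, and the mutant replicates again enclosed the wild-type ones. Its log2 fold change was 0.91 (95% interval -1.08 to 2.90, adjusted *p* = 0.516, edgeR). *his-62* (chromosome IV, 7486545 to 7486916) had 18.5 and 13.8 CPM in mutant gonads, against 25.4 and 20.2 CPM in wild-type gonads, and *his-48* (chromosome IV, 11324745 to 11325116) had 7.01 and 5.73 CPM in mutant gonads, against 10.8 and 7.67 CPM in wild-type gonads. Both had non-overlapping groups with lower mutant values, and log2 fold changes of -0.50 and -0.54 with adjusted *p*-values of 0.264 and 0.326 (edgeR).

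Over all 42 genes, the mutant and wild-type libraries did not overlap for 7 genes that were higher and 12 that were lower in the mutant. These are 16.7% and 28.6% of the histone genes, while 24.1% and 32.7% of all tested genes did not overlap in these directions. Among the 32 genes of at least 1 CPM, 4 were higher and 11 lower without overlap, beside 28.4% and 31.7% of all genes at that level. The log2 fold changes of the 42 genes ran from -2.26 for *his-2* (H3, at 0.590 CPM on average and named after its values were seen) to 3.47 for *hil-7*. For 5 genes, *his-59*, *his-60*, *his-64*, *hil-5* and *hil-2*, the 95% interval lay wholly within a 2-fold difference either way. For the other genes the interval reached beyond a 2-fold difference in at least 1 direction.

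**Figure D3:**
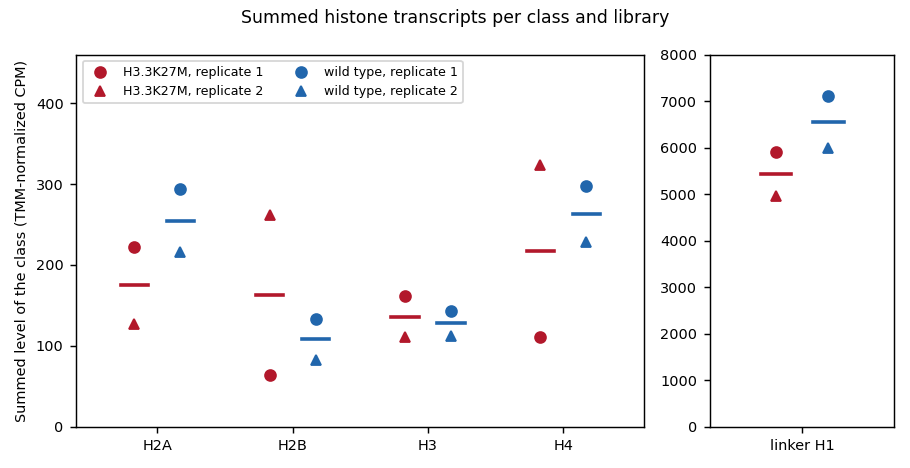
Summed level of each histone class per library (TMM-normalized CPM), with mutant libraries in red left of wild-type libraries in blue, circles for replicate 1, triangles for replicate 2 and bars for the mean of 2 libraries. The mutant H2B and H4 sums are far apart (64.4 and 262 CPM, 111 and 323 CPM). The linker sums of the mutant lie below those of wild type, but narrowly (5898 against 6000 CPM at the closest).

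Summed over genes, the classes were given as levels without a test. The H3 sum was 161 and 111 CPM in mutant gonads, against 143 and 112 CPM in wild-type gonads. The H4 sum was 111 and 323 CPM in mutant gonads, against 298 and 229 CPM in wild-type gonads. These pairs overlapped, as did those of H2A, with 222 and 128 CPM in mutant gonads against 293 and 216 CPM in wild-type gonads, and of H2B, with 64.4 and 262 CPM in mutant gonads against 133 and 83.0 CPM in wild-type gonads. The log2 ratios of these 4 classes changed sign with 1 library or 1 gene left out, except that of H2A. Linker histones summed to 5898 and 4971 CPM in mutant gonads, against 7104 and 6000 CPM in wild-type gonads. Only for the linker histones did the groups not overlap by TMM-normalized CPM. The closest libraries were mutant replicate 1 (5898 CPM) and wild-type replicate 2 (6000 CPM), and their order depended on the scaling. The log2 ratio of the linker sum was -0.27. Without *hil-4* this ratio was -0.02.

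The gene models divided the histone genes into 29 with a single exon and no annotated UTR, all of them core histones, and 13 with an intron and a 3′ UTR. The second kind held the 9 linker genes and 4 core genes, *his-35* (H2A), *his-41* (H2B), *his-37* (H4) and *his-57* (H2A). *his-35*, *his-41* and *his-37* are neighbours between 9544659 and 9547607 on chromosome V. *his-35*, named after its values were seen, had 155 and 465 counts in mutant gonads, against 415 and 310 counts in wild-type gonads. Like its neighbours it was lower in mutant replicate 1 than in mutant replicate 2, by 3.08-fold. The annotated gene C50F4.6 overlaps *his-41* on the same strand and *nstp-10* overlaps *his-37* on the opposite strand, and how the authors' counting treated such reads is not given in the sources used here.

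Replicates of 1 strain differed more for histone genes than for genes at large. Among the 32 histone genes of at least 1 CPM, the median absolute log2 ratio between the mutant replicates was 0.81, and between the wild-type replicates it was 0.62. Over all genes of at least 1 CPM these medians were 0.33 in the mutant and 0.27 in wild type. More than a 2-fold difference separated the mutant replicates for 34.4% of these histone genes, beside 14.9% of all such genes, and the wild-type replicates for 40.6%, beside 9.96%. These shares are descriptions of 4 libraries, and genes are not independent replicates. The comparison was not matched for level or gene length, and some of the histone genes had few reads, such as *his-40* with 13 to 88 counts. In 31 of the 42 genes a difference between replicates exceeded the difference between strains on the log2 scale. At 1 CPM or more this held for 22 of 32 histone genes (68.8%), beside 52.9% of all genes compared.

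The direction of the replicate differences mostly went with the gene models in the mutant. Of the 21 single-exon genes of at least 1 CPM, 17 were lower in mutant replicate 2 than in mutant replicate 1. Of the 11 genes with an intron and a UTR, 8 were higher. The other 3 were *hil-4*, *hil-5* and *hil-8*, with log2 ratios of -0.45, -0.12 and -0.93. *hil-4* and *hil-5* are the genes that took 86.2% of all histone counts. Over all genes of at least 1 CPM, 54.4% were lower and 45.6% higher in that replicate. In wild type, all 32 genes had a lower TMM-normalized level in replicate 2 than in replicate 1, as had 47.3% of all genes of at least 1 CPM. For *his-59* and *his-64* the log2 ratios were only -0.0095 and -0.064, and the direction of such small differences depends on the scaling. The largest wild-type differences at this level were those of *his-25* (H3) and *his-11* (H2B), both on chromosome II and named after their values were seen. *his-25* had 342 and 103 counts in mutant gonads, against 196 and 9 counts in wild-type gonads, and *his-11* had 6.28 and 1.79 CPM in mutant gonads, against 4.06 and 0.558 CPM in wild-type gonads. The efficiency of poly(A) selection in each library is not given in the sources used here, and its part in these differences was not tested. The intestine marker sum was higher in wild-type replicate 2 than in replicate 1 (values above), and its part was not tested either.

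**Figure D4:**
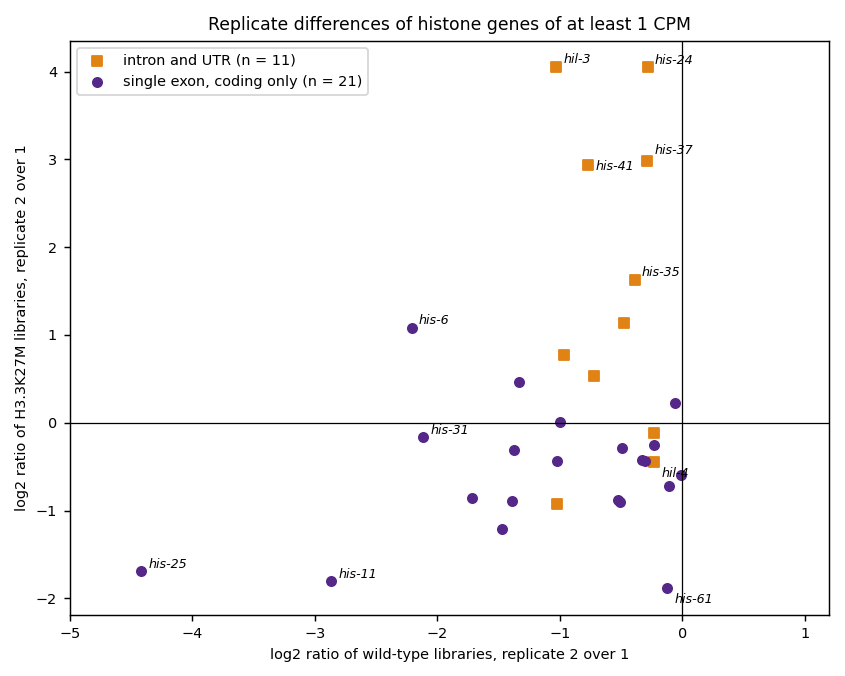
Log2 ratio of replicate 2 over replicate 1 in wild-type gonads (horizontal axis) and in H3.3K27M gonads (vertical axis) for the 32 histone genes of at least 1 CPM; squares are genes with an intron and a UTR, circles are single-exon genes. All points lie left of 0, and *his-24*, *hil-3*, *his-37* and *his-41* lie highest, with mutant ratios of 2.94 to 4.05.

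Head-to-head pairs could be followed where both genes are among the 42. There were 14 such pairs, with 234 to 368 bases between the genes, of which 7 join H3 with H4, 6 join H2A with H2B and 1, *his-67* with *his-68*, joins H4 with H2A. Levels per kilobase of exon differed within a pair by 1.18-fold to 9.22-fold, with a median of 2.47-fold. *his-60* and *his-59* were close, at 156 and 185 CPM per kb over all 4 libraries, and so were *his-61* and *his-62*, at 61.7 and 52.4 CPM per kb. *his-31* and *his-32* were far apart, at 5.61 and 51.8 CPM per kb. In 11 of the 14 pairs both log2 fold changes had the same sign, which was negative in 9 of them. Of all 42 genes, 26 were below 0, so many pairs would share that sign in any case. The sign turned for 18 of the 42 genes with a library left out, among them *his-59* and other genes of these pairs. Agreement within pairs was not tested. The pair of *his-61* and *his-62* had nearly equal log2 fold changes of -0.52 and -0.50, while *his-35* and *his-41* had -0.37 and 0.91.

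Per kilobase of exon, *hil-4* (3407 CPM per kb) and *hil-5* (2927 CPM per kb) were followed by *his-68* (404 CPM per kb), *his-37* (355 CPM per kb), *hil-2* (225 CPM per kb), *his-41* (201 CPM per kb), *his-59* (185 CPM per kb) and *his-60* (156 CPM per kb). The next gene, *his-61*, was at 61.7 CPM per kb. At the low end, *his-16*, *his-7*, *his-57*, *his-8* and *hil-6* had 3 or fewer counts in at least 1 library, and their fold changes rest on very few reads. The annotation lists 75 protein-coding loci with such symbols, among them 17 for H2A, 17 for H2B, 15 for H3, 16 for H4 and 9 linker genes, and the 33 loci outside the 42 were not analysed here. Coding lengths fitted the classes. All 9 H4 genes had 309 bases, all 9 H3 genes 408 bases, 7 of 8 H2A genes 381 bases and 6 of 7 H2B genes 369 bases, and the exceptions were *his-57* with 441 bases and *his-11* with 366 bases. In the annotation used here, *his-11*, *his-25* and *his-57* carry a symbol shared with other loci (*his-15*, *his-9* and *his-47*), and so do *his-45*, *his-47* and *his-58*. Reads of these 6 genes, and of other near-identical copies among the 42, may be shared between loci, and their separate levels are uncertain. Sequence identity was not measured here.

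No gene listed for histone supply and histone mRNA 3′ ends passed the test in either direction. The list is broad and also holds genes not particular to histones, such as *pab-1*, *xrn-2* and *cpf-1*. Of its 26 tested genes, 0 were higher and 0 lower by edgeR's quasi-likelihood test. Over all tested genes these shares were 4.43% and 1.46%. At an unadjusted *p*-value under 0.05, 1 was higher and 0 lower, beside 12.3% and 12.4% of all tested genes. DESeq2 called 0 of them (8.05% and 3.42% of all genes), and so did the classic exact test (7.12% and 3.34%). The median log2 fold change of the list was -0.01. *cdl-1*, which encodes the stem-loop binding protein of histone mRNAs, had 203 and 175 CPM in mutant gonads, against 173 and 188 CPM in wild-type gonads. Its groups overlapped, and the 95% interval of the log2 fold change was -0.36 to 0.50. The variant H2A.Z gene *htz-1* had 168 and 148 CPM in mutant gonads, against 150 and 197 CPM in wild-type gonads. The centromeric H3 genes *hcp-3* and *cpar-1* had log2 fold changes of -0.12 and -0.39 (adjusted *p* = 0.686 and 0.260, edgeR). Of 29 tested S phase genes, such as those of the MCM helicase and PCNA, 0 were higher and 0 lower by edgeR's quasi-likelihood test. DESeq2 and the classic exact test also called 0 of them, and the shares over all genes are those given above. At an unadjusted *p*-value under 0.05 there were 4 lower S phase genes and 0 higher ones, beside 12.4% and 12.3% of all tested genes. The median of the list was -0.16, close to the -0.11 of all tested genes.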

How the data were processed

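RNA-seq counts from 2 H3.3K27M and 2 wild-type gonad libraries were analysed. The submitters' processing notes name TopHat2 2.0.13, HTSeq 0.6.1, edgeR 3.10.5 and build WBcel235. The authors deposited raw counts per gene from reads of 50 bases, and settings for strand and for reads matching several genes are not given in the sources used here. Columns of normalized counts (a signal scaled per library by the authors) and of the authors' own comparison (log2 fold change, average log2 CPM and deposited p-values) were left aside.

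Raw counts of the 15261 of 15286 genes with at least 1 count were scaled with TMM and fitted with edgeR 4.0.16 (estimateDisp, glmQLFit, glmQLFTest; R 4.3.3) on strain alone. Calls needed an adjusted p (Benjamini-Hochberg, all tested genes) under 0.05 together with a change of more than 2-fold. Standard errors are the absolute log2 fold change over the square root of F, and 95% intervals use the fit's degrees of freedom. With 2 libraries per strain, p-values rest on a spread shared across genes. Replicates of 1 strain differed by more than sampling noise (chi-square per degree of freedom 90.1 in the mutant and 100.2 in wild type). Same-numbered replicates did not deviate together (correlation across genes -0.12). Gene models came from Ensembl release 115, which held all 42 genes, and classes from a symbol list.

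Values per library are given for called genes, the 3 highest genes of each class and the 3 largest differences in each direction among genes of at least 1 CPM. Members and lists were chosen with earlier results of these data known. Alternatives were RLE, DESeq2 1.42.0, filterByExpr, the legacy and classic tests, a block for the replicate number, calls without a fold limit, other scalings of class sums and leaving out each library. The fit was tested on simulated data. No sequences were read, since no genome sequence was used here.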

Additional observations from a re-analysis of the deposited data

How the results depend on the processing

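Over all tested genes, 676 were called higher and 223 lower, against 1228 and 522 with DESeq2, 1086 and 510 with the classic exact test and 372 and 91 with the replicate block. With 1 library left out, 0 to 101 were higher and 0 to 17 lower. Among histone genes, DESeq2 called 2 higher and 1 lower, the replicate block called 0 in either direction, and 0 were called higher with any 1 library left out (range 0 to 0), where few genes were called at all. RLE, filterByExpr, the legacy test and the adjusted p alone left *hil-7* as the 1 gene called. Replicates of the 2 strains share only a number, with a correlation of deviations of -0.12. A block with crossed pairs, added after seeing the data, gave 640 higher and 216 lower genes, and 1 higher and 0 lower among histone genes. The block moved no other histone gene across the threshold.

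The linker sum had a log2 ratio of -0.0158 without *hil-4*. The H2B sum had 0.59, but -0.38 without *his-41* and -0.75 without mutant replicate 2. The H4 sum had -0.28, but 0.30 without mutant replicate 1. The H3 sum had 0.09, but -0.20 without mutant replicate 1 and -0.0754 without wild-type replicate 2. The sign of the log2 fold change turned for 18 of the 42 genes with at least 1 of the libraries left out, and for 2, *his-31* and *his-59*, under the other settings. Among the 20 genes named by rule it turned for 6, none of them called. With 1 library left out, the log2 fold change ran from -1.20 to 1.78 for *his-41*, -2.31 to 0.72 for *his-37*, -1.70 to 0.13 for *his-61*, -0.28 to 0.26 for *his-59*, -0.15 to 0.12 for *hil-5* and -0.0859 to 0.68 for *hil-2*. *his-59* was at 0.0272 with RLE and at 0.0271 with DESeq2. For *his-37*, leaving out mutant replicate 1 gave 0.72, and for *his-41*, leaving out mutant replicate 2 gave -1.20. The cause was not tested.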
